A study of Mus musculus with 4 samples.

Results

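The GABAergic lineage genes described here are 10 mouse genes, Gsx2, Dlx1, Dlx2, Dlx5, Dlx6, Sp8, Sp9, Lhx6, Gad1 and Gad2, and they were looked up by name in maps of histone H3 trimethylated at lysine 36 (H3K36me3). A peak counted for a gene when the annotation deposited by the authors gave it that gene's name and any class other than Intergenic. By this rule 4 of the 10 genes had a peak in either library, with 8 of the 92920 non-intergenic peaks of the H2A.z1 cKO library and 3 of the 36006 of the wild-type (WT) library. The chromatin came from forebrain of C57BL/6 embryos at embryonic day 13, labelled as neural progenitor cells. The cKO group carried a deletion of the histone variant H2A.z1 limited to the brain, and the WT group carried none. The Cre driver, the number of embryos per library and whether embryos were pooled are not given in the sources used here. Each genotype had 1 ChIP library, called against input DNA, so every difference is between 2 libraries, without replicates and without a test.

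In the embryonic forebrain, inhibitory neurons that use the transmitter GABA arise from ventral progenitors in the ganglionic eminences. Gsx2 patterns these progenitors, the Dlx homeodomain factors act in them and in their progeny, Sp8, Sp9 and Lhx6 guide subsets of the neurons that leave them, and Gad1 and Gad2 encode the glutamate decarboxylases that make GABA. H3K36me3 is placed by SETD2, which travels with elongating RNA polymerase II, so the mark lies over transcribed gene bodies and is scarce at their starts. In chromatin of a whole forebrain, fewer cells of a lineage and less mark per cell cannot be told apart.

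The libraries were of like depth but differed in the length of their peak lists. The cKO ChIP library held 32927164 tags and 95750 peaks with a median width of 436 bp, and the WT ChIP library 31984670 tags and 36820 peaks with a median width of 271 bp. The fragment length that MACS estimated was 185 bp in cKO and 152 bp in WT, and the part of these differences in the results was not tested. Of 12 neural progenitor markers, 11 carried a peak over the gene in cKO and 9 in WT, beside 43.7% and 31.3% of all protein-coding genes. Sox2, Nes and Vim did in both, Hes1 and Slc1a3 in cKO alone and Fabp7 in neither. Of 15 markers of blood, vessel, microglia and meninges, 1 carried a peak over the gene in cKO (Csf1r, 7.02% of its span covered) and 0 in WT. By name Csf1r had 0 peaks in both libraries, and the nearest WT peak lay 0.799 kb outside its span. The blood, endothelial and meningeal genes Hba-a1, Pecam1 and Col1a1 had 0 in both. H2az1, the deleted gene, had 21.1% of its span inside peaks in cKO and 7.80% in WT. Which exons were removed is not stated in the labels, so peaks there do not check the genotype.

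Among the GABAergic genes, Dlx2, Sp9 and Lhx6 had a peak by name in both libraries and Sp8 had its peak in cKO alone. The other 6 genes, Gsx2, Dlx1, Dlx5, Dlx6, Gad1 and Gad2, had no peak by name in either. Thus 4 of 10 genes were marked by name in cKO, beside 39.1% of 21883 protein-coding genes, and 3 of 10 in WT, beside 27.9%. These shares were close to those of all genes. The positions of the peaks gave another picture, because 7 of the 11 peaks named for a GABAergic gene did not touch its RefSeq span. They were 5 cKO peaks and 1 WT peak named Lhx6, all in 1 stretch, and the cKO peak named Sp9. Peaks of 1 stretch are not separate cases. Among all non-intergenic peaks named for a protein-coding gene, 17.3% in cKO and 18.2% in WT lay outside the span of the gene named. When a peak had to overlap the span, 2 genes were marked in cKO (Dlx2 and Sp8), beside 43.7% of all protein-coding genes, and 3 in WT (Dlx2, Sp9 and Gad2), beside 31.3%. Since 7 of the 10 genes are shorter than 10 kb, the shares among the 7924 protein-coding genes under that length, 25.4% in cKO and 16.3% in WT, are the closer background. Among these 7 genes, Dlx2 and Sp8 were marked in cKO and Dlx2 and Sp9 in WT, while Gad2 is longer than 10 kb. So few genes say little beside those shares, and no test was possible.

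The peaks over Dlx2, Sp9 and Sp8 lay inside the genes and away from their annotated starts, and the start regions themselves are shown here because the mark is normally scarce there. RefSeq windows on GRCm38.p6 from 250 bases before to 50 after a start were found for 8 of the 10 genes, 12 windows in all. None of the 12 overlapped a peak in either library, beside 1.26% of all 32851 windows in cKO and 0.338% in WT. The dinucleotide CG, which reads the same on both strands, is in capitals. It occurred 29 times in the Dlx2 window (chr2:71546705-71547004, minus strand) and 25 times in the Sp9 window (chr2:73271676-73271975, plus strand). Of the 3 Sp8 windows, the window nearest to its peak (chr12:118847309-118847608, plus strand) held 10. The median over the 12 windows was 17 and that over all windows 7, and 94.6% of all windows held at least 1 CG.
Dlx2: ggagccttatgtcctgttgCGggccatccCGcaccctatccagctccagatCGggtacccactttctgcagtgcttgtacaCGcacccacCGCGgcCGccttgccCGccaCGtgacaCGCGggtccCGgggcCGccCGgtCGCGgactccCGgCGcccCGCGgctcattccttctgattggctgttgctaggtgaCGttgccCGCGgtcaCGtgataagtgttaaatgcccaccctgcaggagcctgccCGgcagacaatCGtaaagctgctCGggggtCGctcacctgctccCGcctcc
Sp9: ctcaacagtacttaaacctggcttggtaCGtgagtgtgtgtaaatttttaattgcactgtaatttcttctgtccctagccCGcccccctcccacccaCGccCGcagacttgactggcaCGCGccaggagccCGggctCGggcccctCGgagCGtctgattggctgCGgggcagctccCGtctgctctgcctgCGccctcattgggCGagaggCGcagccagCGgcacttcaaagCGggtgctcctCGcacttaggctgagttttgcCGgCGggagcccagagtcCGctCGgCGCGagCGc
Sp8: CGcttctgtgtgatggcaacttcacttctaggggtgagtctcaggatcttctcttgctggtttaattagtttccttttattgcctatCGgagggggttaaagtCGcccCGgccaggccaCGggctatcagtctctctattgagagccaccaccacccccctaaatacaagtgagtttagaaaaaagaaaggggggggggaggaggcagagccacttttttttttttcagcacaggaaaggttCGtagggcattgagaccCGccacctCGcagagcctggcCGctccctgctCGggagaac

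Dlx2, a homeodomain factor of subpallial progenitors and of their migrating progeny, was the only GABAergic gene with a peak over its span in both libraries. The gene runs on the minus strand of chromosome 2 (71543408 to 71546754, mm10). In cKO the peak (71544300 to 71544511) was 212 bp wide and covered 6.33% of the gene. In WT the peak (71544125 to 71544610) was 486 bp wide and covered 14.5%. The cKO peak lay wholly within the WT peak and spanned 43.6% of it, and the summits were 90 bp apart. Both were classed as transcription termination site (TTS) peaks. They lay 0.892 kb (cKO) and 0.717 kb (WT) from the 3' end of the gene, and their nearest edge to the Dlx2 start window was 2.095 kb away.

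The strength of the Dlx2 peak was low for the cKO list and high for the WT list. Its -log10 q, the authors' value for each peak, was 6.95 in cKO, where 22.9% of the list was weaker, and 10.2 in WT, where 82.0% was weaker. Ranks in lists of unequal length cannot show whether there was a change. The summit held 22 extended tags in cKO, with a fold enrichment of 4.03, and 22 in WT, with a fold enrichment of 6.39. The local input background recovered from pileup and fold was 4.70 tags in cKO, 1.44 times the genome background of that library, and 2.60 tags in WT, equal to its genome background. The fold is taken over this background, and its part in the 2 folds was not tested. A smaller covered share in cKO than in WT was seen in 3 of the 10 GABAergic genes (Dlx2, Sp9 and Gad2), beside 0.731% of all protein-coding genes (160 of 21883). The difference for Dlx2 was -8.19 percentage points. With the cKO list reduced to the 36820 strongest peaks the cKO peak on Dlx2 was lost and the difference became -14.5.

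**Figure D1:**
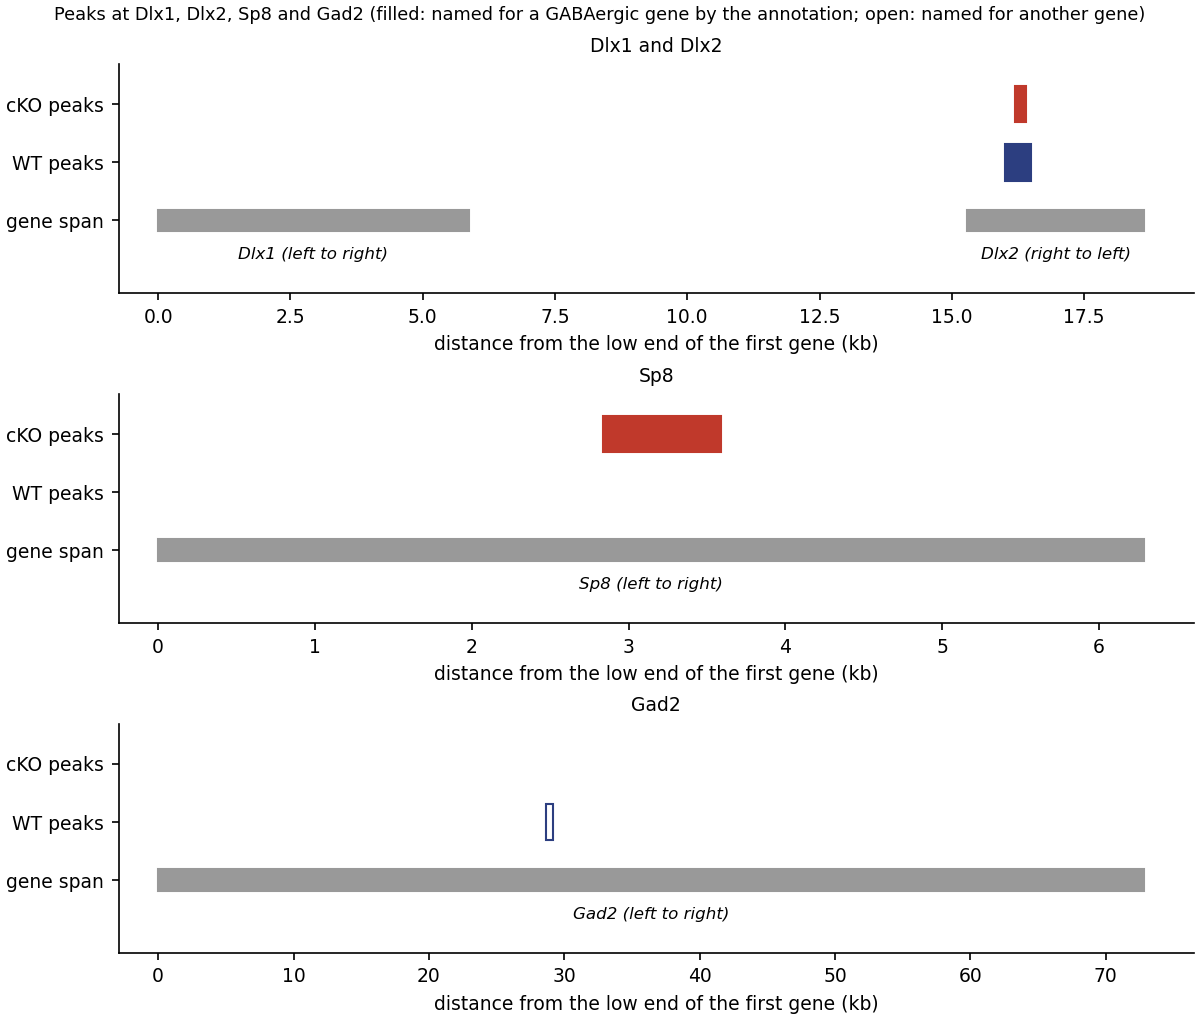
Peaks of the cKO (upper row, red) and WT (lower row, blue) libraries over Dlx1 and Dlx2, Sp8 and Gad2, with gene spans as grey bars and distance in kb on the horizontal axis. Dlx2 carries a peak in both libraries, Sp8 in cKO alone, and Gad2 a WT peak named for another gene (open box), while Dlx1 carries none.

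Dlx1, the partner of Dlx2 in a convergent gene pair, had no peak over its span in either library. The nearest peak in each library was the Dlx2 peak, 10.3 kb away in cKO and 10.1 kb in WT. Dlx5 and Dlx6, which act downstream of Dlx1 and Dlx2 and form a second pair on chromosome 6 (6863334 to 6882068), lay in a stretch without peaks. The nearest peak to Dlx6 was 305 kb away in cKO and 1114 kb in WT, and to Dlx5 319 kb in cKO and 1099.9 kb in WT. The antisense and other noncoding transcripts looked up at Dlx genes and at Gad1 were unmarked too. Dlx6os1, which contains the regulatory RNA Evf2, Dlx6os2, Dlx1as, Dlx4os and Gad1os had 0 peaks over their spans in cKO and in WT. The other Dlx genes measured, Dlx3 and Dlx4, which act mainly outside the brain, had 0 in both. Gsx2, the homeodomain factor of lateral ganglionic eminence progenitors (chromosome 5, 75075601 to 75077893), had no peak nearer than 49.0 kb in cKO and 478 kb in WT.

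Sp8, a zinc finger factor of interneurons of the olfactory bulb and cortex, was marked in cKO alone. The peak (chromosome 12, 118849125 to 118849876) was 752 bp wide, covered 12.0% of the 6291 bp gene and was classed to exon 3 of 3. Its summit held 27 tags, with a fold enrichment of 6.58 and a -log10 q of 14.0. Within the cKO list, 69.0% of peaks were weaker and 73.1% narrower, so the peak belonged to the upper part of its list. The local background at the summit, 3.26 tags, was that of the genome. In WT no peak lay within 314 kb of the gene. A cKO list as long as the WT list kept the Sp8 peak, and one cut to the bases that WT peaks cover (5308 peaks) did not. A peak over the span in cKO alone was found for 1 of the 10 GABAergic genes, beside 12.9% of all protein-coding genes.

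Sp9, the close relative of Sp8 that is needed for neurons of the striatum and for interneurons, had a peak by name in both libraries, but only the WT peak lay on the gene. In cKO the peak named Sp9 (chromosome 2, 73290202 to 73290411) was 14.4 kb beyond the gene and inside the span of Cir1, a corepressor gene on the opposite strand. It was 210 bp wide and classed to intron 7 of 9. Its summit held 21 tags with a -log10 q of 6.31, and 16.8% of the cKO list was weaker. In WT the peak (73274203 to 73274368) was 166 bp wide and lay in exon 2 of 2, 2.28 kb from the 5' end of the gene, over 4.32% of its 3846 bp. It also held 21 tags, its -log10 q was 7.73, and 59.5% of the WT list was weaker but only 12.1% narrower. The local background there was 3.32 tags, 1.28 times the genome background of WT. Neither peak was overlapped by a peak of the other library. Cir1 itself had 9.30% of its span covered in cKO and 1.04% in WT.

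Lhx6, a LIM homeodomain factor of interneurons from the medial ganglionic eminence, held the largest number of peaks by name, 5 in cKO and 1 in WT, and none of them lay on the gene. The gene lies on the minus strand of chromosome 2 (36081950 to 36105992), and the 5 cKO peaks lay between 36115766 and 36120991, 9.77 to 14.5 kb upstream of its 5' end. Each overlapped the span of Rbm18 (36116079 to 36136704), which encodes an RNA-binding protein, although the lowest of them lay mostly outside that span. They were 316, 524, 738, 1276 and 478 bp wide in order along the chromosome. Their summits held 31, 39, 42, 38 and 31 tags, and 80.8 to 95.3% of the cKO list was weaker, so these were the strongest of the cKO peaks named for a GABAergic gene. The WT peak (36116577 to 36116888) was 312 bp wide, held 21 tags and was stronger than 76.3% of its list. It lay wholly within the second cKO peak, with summits 7 bp apart. With the cKO list reduced to the bases that WT peaks cover, 1 of the 5 cKO peaks was left.

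The midpoints of these 6 peaks were 10.5 to 15.3 kb from the nearest Lhx6 start and 15.95 to 20.8 kb from the Rbm18 start. The other peaks over Rbm18 carried the name of Mrrf, a gene on the opposite strand whose span (36135660 to 36190284) starts within the 5' end of Rbm18. In all, 58.8% of Rbm18 was covered by 14 peaks in cKO and 7.03% by 5 peaks in WT, and no peak carried its name. Over the span of Lhx6 the coverage was 0 in both libraries. Among protein-coding genes with a peak by name, 9.95% in cKO and 13.1% in WT had none over their span.

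**Figure D2:**
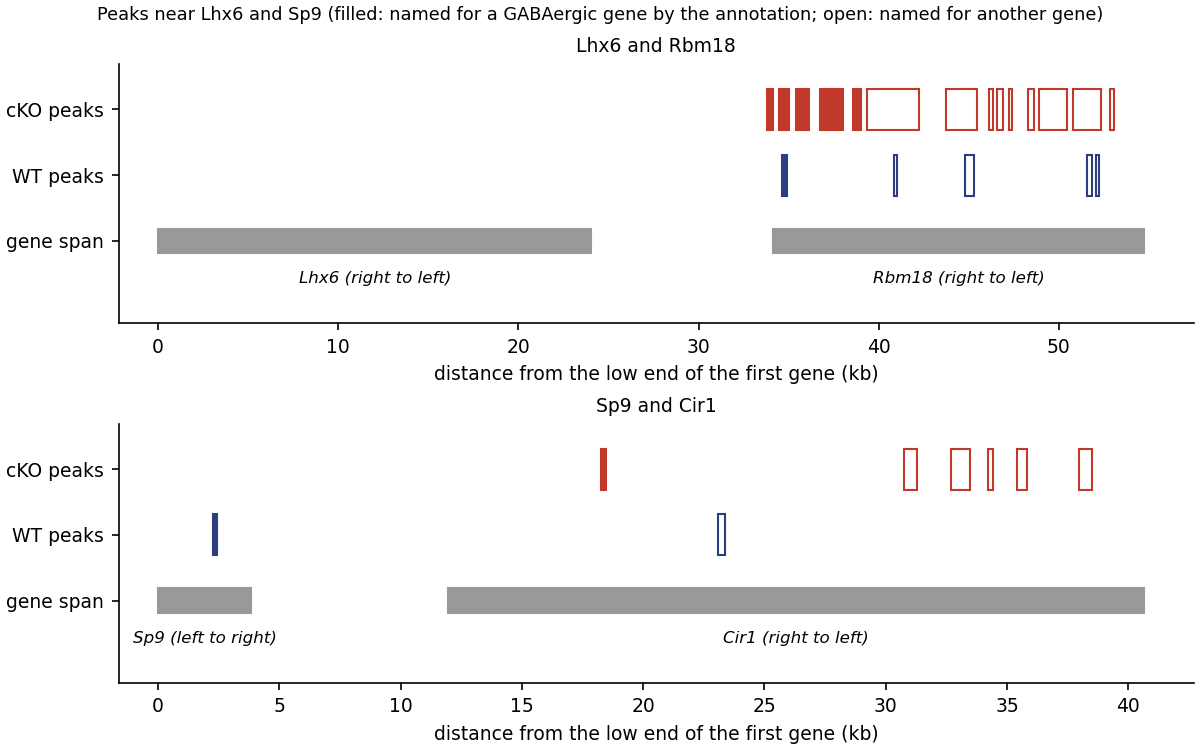
Peaks of the cKO (upper row, red) and WT (lower row, blue) libraries at Lhx6 with Rbm18 and at Sp9 with Cir1, with gene spans as grey bars and distance in kb on the horizontal axis. The filled boxes, named for Lhx6, lie over Rbm18 in both libraries, and the filled cKO box named for Sp9 lies over Cir1, while the WT box lies over Sp9.

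The enzymes that define GABAergic neurons were unmarked by name in both libraries. Gad1 (chromosome 2, 70561303 to 70602014) had no peak over its 40712 bp, and the nearest lay 75.9 kb away in cKO and 76.6 kb in WT, in the direction of Gorasp2. Gad2 (22621015 to 22693877) had no cKO peak within 208 kb. In WT it held 1 peak (22649678 to 22650203), which the annotation named Gm23636 and classed to intron 7 of 15. The peak was 526 bp wide, covered 0.722% of Gad2 and began 28.7 kb from the 5' end of the gene. Its summit held 23 tags at the genome background of 2.60, its -log10 q was 11.1, and 86.4% of the WT list was weaker. It was the strongest WT peak found on any of the 10 genes and falls outside the rule by name.

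A peak over the span in WT alone was thus found for Sp9 and Gad2, 2 of the 10 GABAergic genes, beside 0.484% of all protein-coding genes (106 of 21883). Among the 6859 protein-coding genes marked over the span in WT, 98.5% were also marked in cKO, and of the 3 such GABAergic genes 1 was, Dlx2. Each case rests on 1 peak of 21 to 23 tags in 1 library. Peaks were called from 12 tags upward in WT and 13 in cKO where the local background was that of the genome, and from 16 tags upward in cKO at a background of 4.70. A gene without a peak had no window that passed this cutoff, which does not show that the mark was absent.

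**Figure D3:**
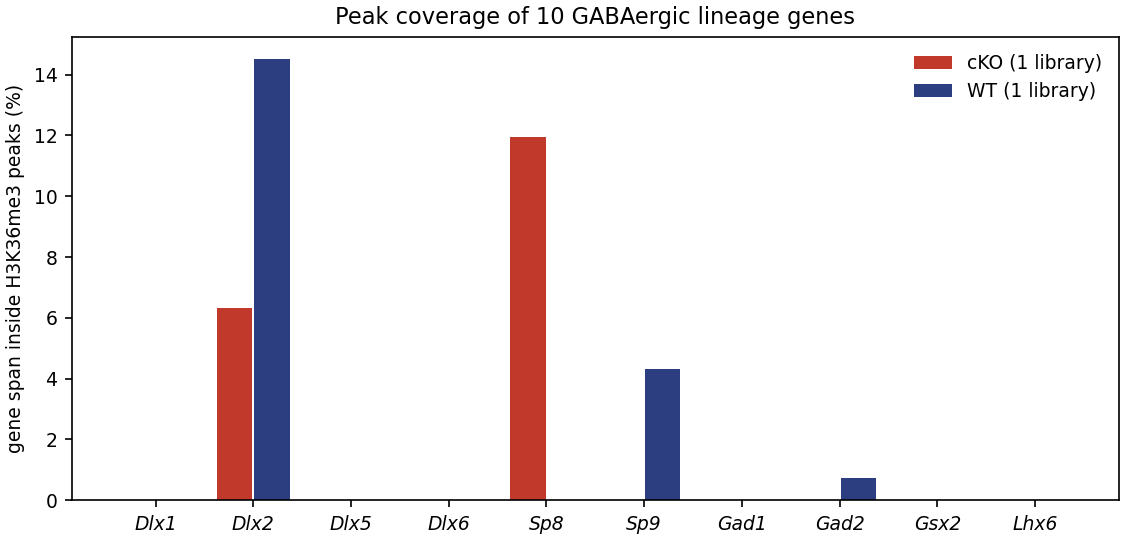
Share of each gene span inside H3K36me3 peaks, in percent, for the 10 GABAergic lineage genes, with 1 library per genotype (cKO red, left; WT blue, right) and no error bars. Dlx2 has 6.33% in cKO and 14.5% in WT, Sp8 12.0% in cKO alone, and Sp9 and Gad2 have WT coverage alone.

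Peaks named for GABAergic genes were shared between libraries at Dlx2 and near Lhx6 only. At a minimum overlap of 1 bp, 2 of the 8 cKO peaks met a WT peak, beside 25.6% of all non-intergenic cKO peaks. Of the 3 WT peaks, 2 were overlapped by a cKO peak, beside 96.5% of all non-intergenic WT peaks. The exception in WT was the Sp9 peak. The Gad2 peak, which the rule leaves out, was not overlapped either.

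**Figure D4:**
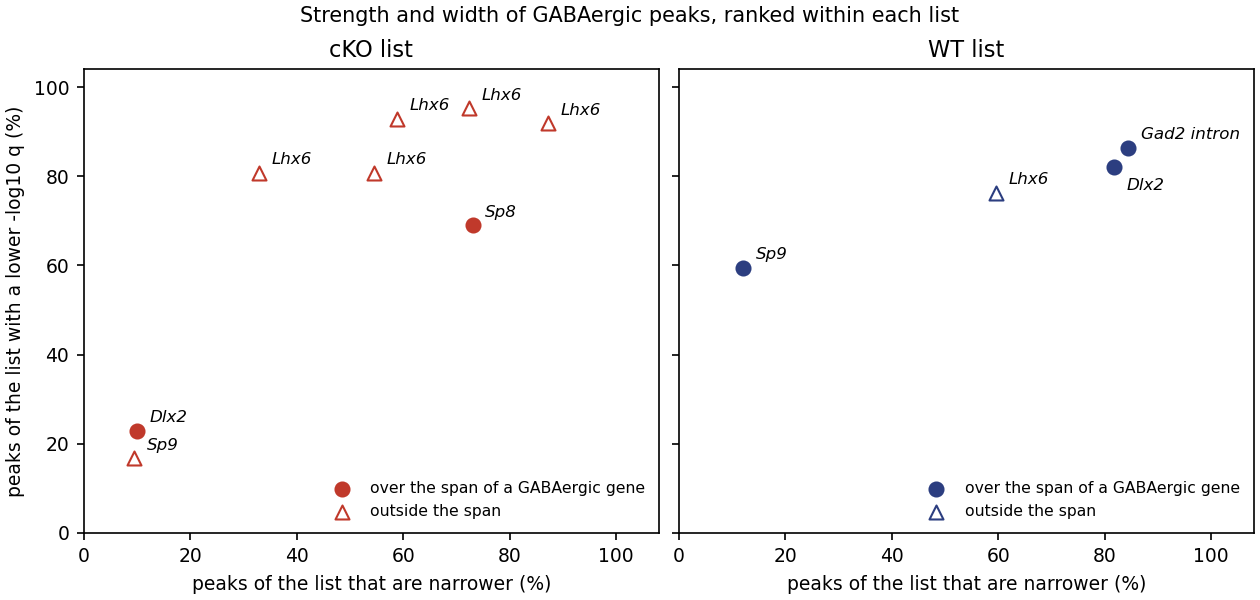
Strength of each peak (share of its own list with a lower -log10 q, in percent) against its width (share of the list that is narrower, in percent), for the cKO list on the left and the WT list on the right. Filled circles lie over a GABAergic gene and open triangles outside it. Within the cKO panel, the 5 peaks named Lhx6 lie highest and the peaks named Dlx2 and Sp9 lowest.

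The protein-coding genes next to the GABAergic genes varied widely. Of 16 distinct neighbours that are not themselves among the 10 genes, 9 carried a peak over the span in cKO and 6 in WT, beside 43.7% of all protein-coding genes in cKO and 31.3% in WT. Coverage was higher in cKO in 9 of them, beside 43.5% of all protein-coding genes. The cKO peaks spanned 69.1 Mb of the genome in all and the WT peaks 13.3 Mb. Gorasp2, a Golgi stacking protein gene beside Gad1, had 33.9% in cKO and 6.40% in WT. Itga6, the integrin gene next to Dlx2, had 11.8% in cKO and 0.826% in WT. Metap1d, a mitochondrial aminopeptidase gene 2.92 kb from Dlx1, had no peak in cKO and 0.281% in WT, and was the only neighbour with less in cKO.

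Other genes of the GABAergic lineage were taken from lists drawn from general knowledge, with earlier results of these data known. Of 25 other ventral telencephalon regulators, 9 had a peak over the span in cKO, beside 43.7% of all protein-coding genes, and 8 in WT, beside 31.3%. All 9 had the larger coverage in cKO, which was also the direction of 9510 of the 21883 protein-coding genes, with 160 the other way. Meis2, a homeodomain factor of striatal precursors, had 30 peaks over 5.74% of its span in cKO and 22 over 2.60% in WT. Bcl11b, a factor of striatal and deep-layer neurons, had 5.07% in cKO and 2.77% in WT, and Zeb2 3.68% in cKO and 1.11% in WT. Foxp1 had 1.73% in cKO and 0.130% in WT, and Tshz1 3.93% in cKO and 1.03% in WT. Nkx2-1 and Lhx8, which specify the medial ganglionic eminence, and Gsx1, Isl1 and Olig2 had 0 in both libraries.

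Of 26 genes of interneuron migration and maturation, 11 were marked over the span in cKO and 10 in WT. Both counts include Sp1, a broadly used activator that is also counted among the Sp genes. Over all protein-coding genes the shares were 43.7% in cKO and 31.3% in WT. Ccnd2, a cyclin of dividing progenitors, had 55.3% of its span covered in cKO and 23.9% in WT. Nr2f2, a factor of the caudal ganglionic eminence, had 15.7% in cKO and 6.68% in WT, while its relative Nr2f1 had 21.8% in cKO and 24.1% in WT. Reln, the secreted guidance protein of early cortical neurons, had no peak in cKO and 1 in WT, over 0.0530% of its span. Satb1 had 4.22% in cKO and 0.734% in WT and Sox6 0.892% in cKO and 0.131% in WT, both factors that act after Lhx6. The markers of mature interneurons Sst, Npy, Calb1, Calb2, Pvalb and Vip had no peak in either library. Among other genes of GABA handling, Slc32a1, which loads GABA into vesicles, and Abat, which degrades it, had 0 in both.

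Relatives of the GABAergic regulators differed among themselves. Of 7 other Sp genes, Sp1 to Sp4 were marked in both libraries and Sp5, Sp6 and Sp7 in neither. Sp1 had 44.1% of its span covered in cKO and 8.34% in WT, Sp2 23.3% in cKO and 3.43% in WT, Sp3 11.8% in cKO and 1.24% in WT, and Sp4 2.30% in cKO and 0.333% in WT. Of 11 other LIM homeobox genes, 2 were marked in cKO and 1 in WT. For both families the shares over all protein-coding genes were 43.7% in cKO and 31.3% in WT. Lhx2, a selector of cortical identity, had 37.6% in cKO and 17.9% in WT, and Lhx9 1.52% in cKO and 0 in WT.

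The dorsal counterpart of the GABAergic lineage was a list of 20 genes of glutamatergic cortical progenitors and neurons. Over the span, 7 were marked in cKO, beside 43.7% of all protein-coding genes, and 7 in WT, beside 31.3%. In this list 12 genes, among them Eomes, Tbr1, Neurog2 and Neurod1, had no peak over the span in either library. Of all 21883 protein-coding genes, 9565 were marked over the span in cKO, 106 in WT alone and the rest in neither. The dorsal patterning factors Emx1, Emx2 and Pax6 were among the marked genes of the list. Emx1 had 38.2% in cKO and 7.72% in WT, Emx2 33.4% in cKO and 4.42% in WT, and Pax6 18.8% in cKO and 5.67% in WT. Pou3f3 had 49.7% in cKO and 40.5% in WT and Cux1 14.3% in cKO and 1.52% in WT. Sox5 had 0.368% in cKO and 0.112% in WT. Fezf2, a factor of deep-layer projection neurons, had 0 in cKO and 2.33% in WT, the only dorsal gene of the list with less in cKO. Among the 10 GABAergic genes the highest values were 12.0% in cKO (Sp8) and 14.5% in WT (Dlx2). The median over the list was 0 in both libraries for the GABAergic and for the dorsal genes, as it was over all protein-coding genes.

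**Figure D5:**
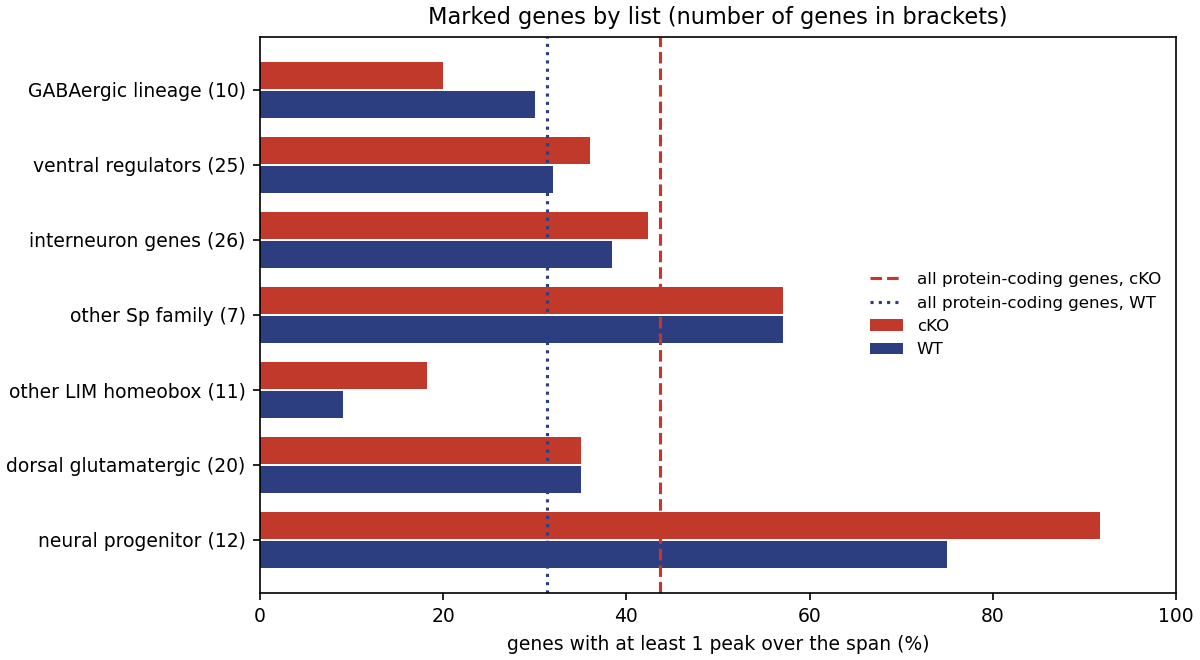
Share of genes with at least 1 peak over the span, in percent, for 7 gene lists (cKO red, upper bar; WT blue, lower bar), with vertical lines for all protein-coding genes in cKO (43.7%) and WT (31.3%). The GABAergic list has 2 of 10 genes marked in cKO and 3 in WT, and the neural progenitor list 11 of 12 in cKO and 9 in WT.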

How the data were processed

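H3K36me3 chromatin immunoprecipitation was done on forebrain crosslinked in 1% formaldehyde, per the labels' protocols. The authors used Bowtie2 2.2.9 and mm10, per the submitters' processing notes. Peaks were called with MACS 2.1.1.20160309 as narrow peaks at a p cutoff of 1.00e-05, 1 ChIP library against input, per the file headers. The deposited lists give the pileup signal at the summit, the fold enrichment over local input, and the -log10 of p and q. These are the authors' values per peak. They describe, rank and filter peaks within a list. Set side by side, values of both lists cannot show whether there was a change. The header states that q was not calculated, although the deposited column is filled. A second deposited table names a class and a gene for each peak. Neither header nor label names the annotation tool. Every peak was joined by chromosome, start minus 1 and end.

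Spans came from RefSeq (GRCm38.p6, the chromosomes of mm10), where all 10 genes matched. Coverage is the percent of a span inside merged peaks. It grows with tags and enrichment. Local background was (pileup + 1) / fold - 1, and the genome background the fragment length times the tags of the smaller library over the genome size. A level of background was matched within 1%. Interval functions were checked on simulated intervals, with Python 3.11.15 and pandas 2.3.3. All 10 genes were named. From each other list up to 6 marked genes were named by covered bases, and others were added after their values were seen. A few genes of these lists are not reported here. The genes and lists were chosen with earlier results of these data known.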

Additional observations from a re-analysis of the deposited data

How the results depend on the processing

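With 1 library per genotype and no counts outside peaks, depth limits every gene to whether a window passed the cutoff. The counts in WT of genes with a peak (3), of peaks by name (3) and of genes covered (3) did not move, although over the spans Gad2 took the place of Lhx6. The 2 settings with a reduced cKO list left the WT list whole, so these WT counts could not move there. In cKO, 4 genes had a peak by name. This became 2 with the cKO list reduced to the number of WT peaks (Lhx6 and Sp8), 1 with it reduced to the bases covered by WT peaks (Lhx6), and 2 with any peak overlapping the span (Dlx2 and Sp8). Within 10 kb of the spans, 3 genes had a cKO peak (Dlx2, Sp8 and Lhx6). The 8 cKO peaks became 7 with a fold of at least 4, 6 at the matched number of peaks and 1 at matched bases. They became 2 over the spans, 3 within 10 kb of the spans and 4 with peaks within 3 kb joined. The 2 genes covered in cKO became 1 at the matched number of peaks (Sp8), 0 at matched bases and 3 with 10 kb added to the spans. The 2 shared cKO peaks became 4 within 1 kb, 1 with a reciprocal overlap of 50%, 1 at the matched number and 0 at matched bases, and the 2 shared WT peaks became 1 with the reciprocal overlap, 1 at the matched number and 0 at matched bases. The change with the reduced lists follows from fewer cKO peaks, and either reduced list left Dlx2 without a cKO peak. A -log10 q of at least 5 changed none of these counts, and a fold of at least 4 removed the cKO peak named Sp9. No coverage difference between cKO and WT went from positive to negative or the reverse, and that of Sp8 became 0 at matched bases. The difference for Lhx6, 0 over the span, became 0.515 percentage points with 10 kb added. No paired analysis was possible because each genotype had 1 ChIP library and no result came from a test.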

Other observations

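Peaks named for a gene but lying on its neighbour were also seen in the other lists. Of 132 distinct genes in the lists, 49 had a peak by name in cKO and 42 in WT, and 7 of these in cKO and 5 in WT had none over their own span. Among all protein-coding genes with a peak by name the share was 9.95% in cKO and 13.1% in WT, so the counts are near those of genes at large. Besides Sp9 and Lhx6 these were Npas1, a factor of GABAergic neurons, Gbx1, Lhx3, the proneural gene Neurog2 and the endothelial gene Cldn5. All 20 cKO and 5 WT peaks named Npas1 lay over Arhgap35. The 14 cKO peaks named Neurog2, which had 0 in WT, lay over Zgrf1. The 6 cKO and 7 WT peaks named Gbx1 lay over Agap3, the 5 cKO and 1 WT peaks named Lhx3 over Qsox2, and the 10 cKO and 2 WT peaks named Cldn5 over Cdc45, a replication factor gene. These genes were singled out after their values were seen.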
